A study of Mus musculus with 2 samples.

Results

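The insulin-like growth factor (IGF) family of the temporomandibular joint (TMJ, the jaw joint) was described through 9 genes chosen by name: the ligands Igf1 and Igf2, the receptor Igf1r, and the binding protein genes Igfbp2, Igfbp3, Igfbp4, Igfbp5, Igfbp6 and Igfbp7. They are 9 of the 32285 genes counted, and all 9 had UMIs in both libraries. IGF1 and IGF2 are secreted growth factors that signal through the receptor tyrosine kinase IGF1R, whose main downstream branches run through PI3K and AKT and through the MAP kinases. In joints IGF1 is known as an anabolic factor for cartilage matrix. The IGF binding proteins hold the ligands in the extracellular fluid and matrix, from which proteases such as PAPP-A release them, and IGFBP7 binds IGFs only weakly and is better known as a vessel and matrix protein.

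On GRCm38, as annotated in GENCODE M21, Igf1 lies at chr10:87858265-87937042 on the plus strand, Igf2 at chr7:142650766-142666816 on the minus strand and Igf1r at chr7:67952827-68233668 on the plus strand. Igfbp2 (chr1:72824503-72852474, plus) and Igfbp5 (chr1:72857932-72874884, minus) are neighbours, tail to tail with 5457 bases between them. Igfbp3 (chr11:7206086-7213923, minus) and Igfbp4 (chr11:99041244-99054392, plus) share a chromosome at a distance, and Igfbp6 lies at chr15:102144362-102149511 on the plus strand and Igfbp7 at chr5:77349240-77408041 on the minus strand. Counts are given per gene, so exons, UTRs and any introns counted were not told apart.

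The data were 2 single-cell RNA-seq libraries, 1 per genotype, from the TMJ of C57BL/6 mice aged 8 to 10 weeks. Both groups had received complete Freund's adjuvant (CFA), an agent that causes joint inflammation, by injection into the joint, and no library without CFA was analysed here. The WT library came from wild-type mice and the mutant library from Prox1+/- mice, which carry 1 constitutive null allele of Prox1, the transcription factor that specifies lymphatic endothelium, and which the study used as a model of poor lymphatic function. The methods give the mice as female, and how many mice were pooled in each library is not given in the sources used here. With 1 library per genotype a difference between the libraries cannot be told apart from a difference between the mice, dissections or captures behind them, so no test was made and the intervals cover counting error only.

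The WT library held 5709 cell barcodes and 53517206 UMIs (unique molecular identifiers, each 1 captured transcript), and the mutant library held 7846 barcodes and 62446987 UMIs. After the study's cell filter 4352 WT cells with a median of 6997 UMIs and 5757 mutant cells with a median of 4848 UMIs were kept, and 4 barcodes among them occurred in both libraries. Prox1 itself was counted at 11.6 CPM in WT cells and 5.80 CPM in mutant cells, over libraries of different make-up. By class it was at 40.1 and 24.9 CPM in endothelial-like cells, which were 26.6% of WT and 10.6% of mutant cells, at 313 and 487 CPM in muscle-like cells and at 12.3 and 13.4 CPM in mural-like cells, so the lower level was not seen in every class. The cells fell into 45 clusters, of which 37 took a name from their marker genes, always with the ending "-like" here, and 8 stayed unnamed with 9.05% of WT and 27.6% of mutant cells. The 45 genes of an IGF pathway list, the 9 members included, were kept out of the features used for clustering and out of the naming, although Igfbp6 is one of the genes by which the study named its mesenchymal cells. A level is given in CPM, the UMIs of a gene per 1000000 UMIs summed over all cells of a class in 1 library, with its exact Poisson 95% interval. Such levels are compared between cells and libraries and not between genes, whose capture at the 3' end differs.

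Levels were compared over the 13 cell classes with at least 30 cells in each library. Igf1, Igfbp4, Igfbp5 and Igfbp6 were highest in mesenchymal-like cells, Igfbp3 in endothelial-like cells, Igfbp2 and Igfbp7 in mural-like cells (pericytes and smooth muscle of vessel walls), Igf2 in muscle-like cells and Igf1r in neutrophil-like cells. The same class led in both libraries for each of the 9 genes. Mutant mesenchymal-like cells held less Igfbp4 and Igfbp6 and more Igf1 and Igfbp5 than WT ones. Among these only the Igfbp4 difference reached 1.5-fold, and it went the other way in tendon or ligament fibroblast-like cells, which belong to that class. The ligand Igf2 was higher in several mutant classes at low levels.

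**Figure D1:**
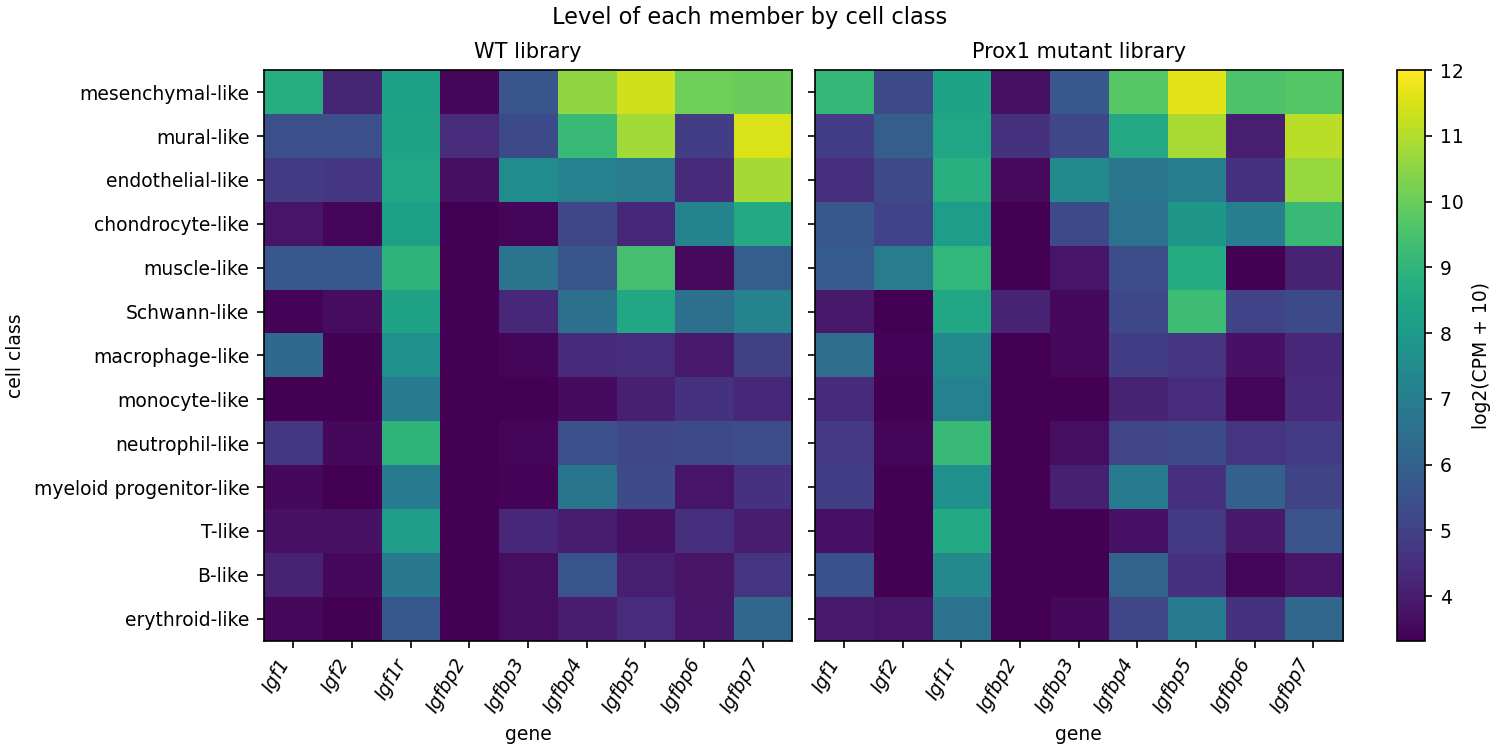
Level of the 9 IGF genes in 13 cell classes of the WT and the mutant library, in CPM on a log colour scale, 1 panel row per class and library. Igfbp5 peaks in mesenchymal-like cells at 2645 and 3163 CPM, Igfbp7 in mural-like cells at 2912 and 2191 CPM, and Igf1r is above 40 CPM in every class.

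The UMIs of the binding proteins were spread over few classes. Mesenchymal-like cells, 551 of the kept WT and 528 of the kept mutant cells, held 93.0% of all Igfbp6 UMIs in WT cells and 88.2% in mutant cells. They also held 76.4% and 60.6% of the Igfbp4 UMIs, and 74.8% and 73.4% of the Igfbp5 UMIs. Igfbp7 was shared between endothelial-like cells (44.0% and 37.2%), mesenchymal-like cells (27.5% and 27.6%) and mural-like cells (21.2% and 19.1%). Igf1r had no such centre, with at most 21.8% of its UMIs in any named class of either library. The unnamed clusters held 16.2% and 24.4% of the Igfbp3 UMIs and 20.3% and 26.3% of the Igf2 UMIs.

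**Figure D2:**
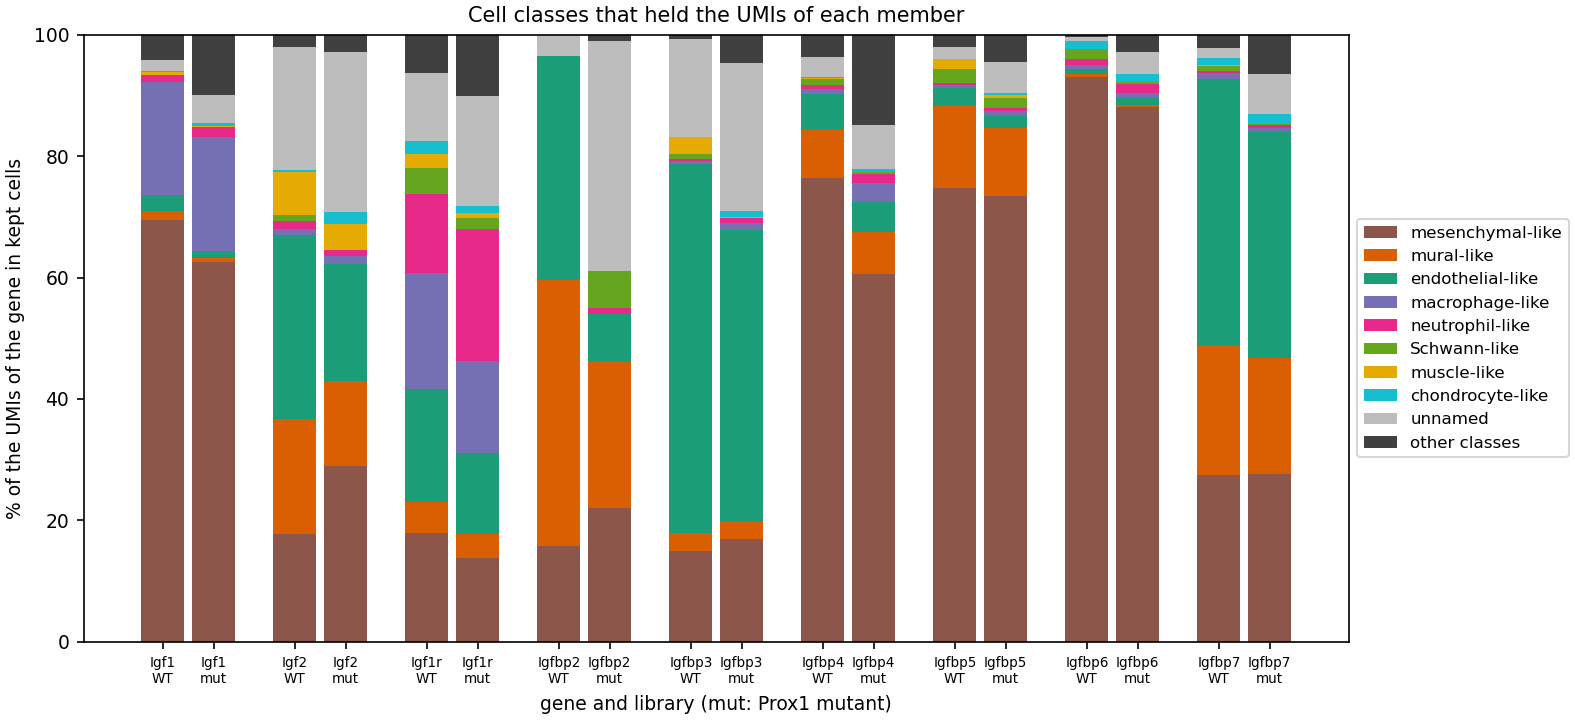
Share of each gene's UMIs, in percent, that fell in each cell class of the WT and the mutant library, as stacked bars from 0 to 100%. The mesenchymal-like part of the Igfbp6 bar is 93.0% in WT cells and 88.2% in mutant cells, whereas Igf1r is divided over many classes.

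Igf1, the ligand made by liver and by many stromal cells, was counted at 418 CPM (404 to 432) in WT cells against 545 CPM (528 to 563) in mutant mesenchymal-like cells, from 3416 and 3688 UMIs. Macrophage-like cells came next with 68.9 and 76.5 CPM followed by muscle-like cells with 41.5 and 47.9 CPM. Without the top droplets muscle-like cells were at 12.5 and 28.5 CPM, from 8 and 7 UMIs, and mural-like cells at 17.6 and 8.99 CPM. The intervals of the mesenchymal and macrophage levels lay apart in both libraries, while those of macrophage and muscle overlapped in the mutant library. In the other 10 classes Igf1 lay between 0 and 33.1 CPM in WT cells and between 3.49 and 40.8 CPM in the mutant, in an order that differed between the libraries. Macrophage-like cells held 18.6% and 18.8% of all Igf1 UMIs. The genes whose levels followed Igf1 most closely over 44 points, each 1 group of cells in 1 library, were C1ra (Pearson's r = 0.89), Steap3 (r = 0.85) and Mmp14 (r = 0.80), out of 13696 genes compared. The points share 2 libraries and their depths, so this is a description of place.

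Among mesenchymal-like cells Igf1 was higher in those with the markers Pi16, Cd55 and Sema3c, called Pi16+ fibroblast-like here (365 WT and 256 mutant cells), than in tendon or ligament fibroblast-like cells, which carry Scx, Fmod and Mkx (170 and 107 cells). The leading gene of the larger Pi16+ cluster was Prg4, a marker of synovial lining fibroblasts. Mutant mesenchymal-like cells had 2484 CPM of Prg4, against 1513 CPM for WT. The part of lining-type cells in the differences given for Pi16+ fibroblast-like cells, here and below, was not tested. Igf1 stood at 479 CPM in WT cells and 648 CPM in mutant Pi16+ fibroblast-like cells, a log2 ratio of mutant to WT of 0.44 (95% interval 0.36 to 0.51). In tendon or ligament fibroblast-like cells it stood at 296 and 419 CPM, a log2 ratio of 0.50 (0.34 to 0.66). Mutant cells thus had the higher Igf1 level in both types, by less than 1.5-fold. The droplet with most Igf1 UMIs held 23.9% of them in WT and 22.0% in mutant tendon or ligament fibroblast-like cells, and the log2 ratio without it was 0.55. After each cell was thinned to 2000 UMIs, 34.7% of WT and 31.6% of mutant mesenchymal-like cells had an Igf1 UMI (54.4% and 45.5% unthinned), so the higher level was not matched by a higher share of cells. The cells behind these shares differed in make-up. A fibroblast-like cluster of low depth (medians of 2194.5 and 2797 UMIs) supplied 16 of the WT and 165 of the mutant mesenchymal-like cells. Its part in this and the other mesenchymal-like shares was not tested. In B-like cells, which are not a known source, the thinned shares were 1.68% and 6.38% (median depths 4013 and 4827 UMIs).

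Igf2, the ligand best known from fetal growth and imprinted with H19, was scarce, with 390 UMIs in all kept WT cells and 676 in all kept mutant cells. Satellite-like cells of muscle, which had Pax7 at 739 and 1197 CPM, led with 43.0 CPM (28.6 to 62.2) in WT cells against 116 CPM (77.5 to 166) in mutant cells. Arterial endothelial-like cells had 55.2 and 91.1 CPM and smooth muscle-like cells 37.8 and 60.7 CPM. The satellite and arterial intervals overlapped in both libraries, with the arterial level the higher one in WT. Below these came tendon or ligament fibroblast-like cells with 25.0 and 33.8 CPM, and capillary and venous endothelial-like cells had at most 7.59 CPM. The strongest likeness over the 44 points was to Ltbp1 (r = 0.81), Plcd3 (r = 0.78) and Tgfb2 (r = 0.77). At the locus Igf2 overlaps Gm49394 and Mir483 on its own strand and Igf2os on the other.

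Mutant cells held more Igf2 in each of its 3 leading types. In satellite-like cells 28 UMIs were counted in 18 of 90 WT cells and 29 UMIs in 15 of 35 mutant cells, a log2 ratio of 1.43 (0.63 to 2.23). After thinning, 8.24% (3.38 to 16.2) of WT and 17.1% (6.56 to 33.6) of mutant satellite-like cells had an Igf2 UMI. In arterial endothelial-like cells 96 and 114 UMIs gave a log2 ratio of 0.72 (0.32 to 1.13), and 0.69 without the top droplet of each library. In smooth muscle-like cells 63 and 88 UMIs gave 0.68 (0.20 to 1.17), and 0.60 without the top droplets. H19 was also higher in mutant satellite-like cells, at 67.6 CPM in WT cells and 176 CPM in mutant cells.

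Much of the Igf2 difference in Pi16+ fibroblast-like cells came from 1 droplet. In Pi16+ fibroblast-like cells 9 UMIs were counted in WT (1.59 CPM) and 136 in the mutant (29.3 CPM), but 105 of the 136, or 77.2%, sat in a single mutant droplet. Without the top droplet of each library the levels were 1.07 and 6.74 CPM, from 6 and 31 UMIs, a log2 ratio of 2.65 (1.37 to 4.21). The larger Pi16+ cluster taken alone did not share this difference. Without its top droplets it had 5 WT UMIs and 1 mutant UMI, a log2 ratio of -1.93 (-7.50 to 1.23). In all mesenchymal-like cells the log2 ratio was 1.78 (1.38 to 2.20) from 8.45 and 29.0 CPM, while without those droplets the levels were 6.74 and 13.5 CPM. The smaller Pi16+ cluster kept a broader difference, with an Igf2 UMI in 1 of 121 WT cells and in 13 of 116 mutant cells, where 12 of the 30 mutant UMIs came from the top droplet.

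Igf1r, the receptor for both ligands, was found in every class. Neutrophil-like cells led with 508 CPM (484 to 532) in WT cells against 583 CPM (563 to 603) in mutant cells, followed by muscle-like cells with 495 and 531 CPM, and the intervals of these neighbours overlapped in both libraries. Endothelial-like cells had 341 and 432 CPM, and T-like, Schwann-like, mural-like, mesenchymal-like and chondrocyte-like cells lay between 283 and 312 CPM in WT cells and between 284 and 386 CPM in the mutant, with neighbouring intervals that overlapped. Macrophage-like cells were lower with 193 and 162 CPM, and erythroid-like cells were lowest with 42.2 and 89.2 CPM. Among neutrophil-like cells the immature ones had 583 and 796 CPM and the mature ones 429 and 426 CPM. After thinning, 56.6% of WT and 50.1% of mutant neutrophil-like cells had an Igf1r UMI (76.6% and 70.7% unthinned), against 17.6% and 24.5% of B-like cells. Its closest followers over the 44 points were Asb7 (r = 0.80), Mcu (r = 0.78) and Golim4 (r = 0.77).

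Igf1r was higher in the mutant library in several vessel cell types. Venous endothelial-like cells went from 225 CPM (207 to 244) in WT to 378 CPM (349 to 408) in the mutant, for a log2 ratio of 0.75 (0.59 to 0.91), and 0.72 without the top droplets. Pericyte-like cells had 390 and 562 CPM, a log2 ratio of 0.53 (0.24 to 0.82), and immature neutrophil-like cells a log2 ratio of 0.45 (0.34 to 0.56). Capillary endothelial-like cells had 448 and 515 CPM and arterial ones 374 and 418 CPM, with log2 ratios of 0.20 and 0.16. Smooth muscle-like cells were at 287 and 278 CPM and mature neutrophil-like cells had a log2 ratio of -0.01 (-0.14 to 0.12). In macrophage-like cells of all kinds the receptor was lower in the mutant by a log2 ratio of -0.25 (-0.34 to -0.17).

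Igfbp2 was at the limit of detection, with 57 UMIs in WT and 100 in the mutant over all kept cells. Mural-like cells held 25 and 24 of them, at 11.3 and 13.4 CPM. The unnamed clusters held 2 and 38, the most of any group in the mutant, endothelial-like cells 21 and 8, and mesenchymal-like cells 9 and 22. Pericyte-like cells, marked by Rgs5, Kcnj8 and Abcc9, led the cell types at 42.9 and 41.2 CPM, and their intervals lay apart from the next type, venous endothelial-like cells, in both libraries. These were 23 UMIs in 7 of 62 WT cells and 14 UMIs in 2 of 34 mutant cells, and 1 mutant droplet held 71.4% of the latter. In macrophage-like, monocyte-like, B-like, T-like, erythroid-like, chondrocyte-like, muscle-like and myeloid progenitor-like cells 0 UMIs were counted in both libraries. Kcnj8, the pericyte marker, was among the 3 genes nearest to Igfbp2 (r = 0.90), with Actg2 (r = 0.91) and Lrfn2 (r = 0.86), and few cells stand behind these values. Kcnj8 and Actg2 were themselves among the markers used to name the mural types, so their likeness is no independent sign of a mural place.

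Igfbp3, the main IGF carrier of serum, was counted at 175 CPM (166 to 185) in WT cells against 166 CPM (155 to 178) in mutant endothelial-like cells. Mesenchymal-like cells had 39.0 and 41.5 CPM and mural-like cells 28.6 and 25.7 CPM, both with intervals apart from the endothelial level. Most of the mutant mural UMIs sat in 1 droplet, and without the top droplets the mural levels were 21.5 and 4.55 CPM, from 47 and 8 UMIs. The 60 UMIs of WT muscle-like cells, 92.2 CPM, all came from 1 droplet, and mutant muscle-like cells had 1 UMI. The genes that followed Igfbp3 most closely were Fgd5 (r = 0.91), Ramp2 (r = 0.90) and Efnb2 (r = 0.90). Efnb2, ephrin B2, was itself among the markers that named the arterial type, so its likeness is no independent sign of an arterial place.

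Within the endothelium the arterial-like cells (marked by Gja4, Gja5 and Sox17) had most Igfbp3 and only the venous-like cells differed widely between the libraries. The arterial level was 290 CPM in WT cells and 357 CPM in mutant cells, a log2 ratio of 0.30 (0.11 to 0.49). A single mutant droplet held 107 of the 446 arterial UMIs, and without the top droplets the log2 ratio was 0.08 (-0.12 to 0.29). Venous endothelial-like cells (Ackr1, Selp and Sele) had 209 CPM (192 to 227) in WT cells against 106 CPM (90.9 to 122) in mutant cells, a log2 ratio of -0.98 (-1.23 to -0.74), and -1.02 without the top droplets. A UMI was seen in 61 of 164 WT and 20 of 93 mutant venous cells, or 37.2% and 21.5%, at median depths of 13822 and 14238 UMIs. Capillary endothelial-like cells had 73.1 and 85.3 CPM with overlapping intervals. Arterial and venous intervals lay apart in both libraries, and those of venous and capillary cells overlapped in the mutant.

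Igfbp4, an inhibitory binding protein that is cut by PAPP-A, was the binding protein with the largest difference in its leading class. Mesenchymal-like cells had 1509.7 CPM (1483 to 1537) in WT cells against 845 CPM (824 to 868) in mutant cells, from 12335 and 5718 UMIs, a log2 ratio of -0.84 (-0.88 to -0.79). After thinning to 2000 UMIs, 60.5% (56.2 to 64.6) of WT and 50.4% (45.8 to 55.1) of mutant mesenchymal-like cells had an Igfbp4 UMI, or 80.6% and 67.4% unthinned. The difference in cluster make-up given for Igf1 applies to these shares, and its part was not tested. The thinned share in B-like cells was 5.04% and 6.38%. Mural-like cells came second with 576 and 369 CPM and endothelial-like cells next in WT with 129 CPM, against 95.1 CPM in the mutant, where myeloid progenitor-like cells had 113 CPM. Each of the first 3 levels had an interval apart from the next, except endothelial and myeloid progenitor-like cells in the mutant. Hspb8 (r = 0.86), Serping1 (r = 0.85) and Cygb (r = 0.84) followed it most closely.

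Igfbp4 was lower in most but not all mutant stromal cells. In Pi16+ fibroblast-like cells it stood at 1997 CPM in WT cells and 1031 CPM in mutant cells, a log2 ratio of -0.95 (-1.002 to -0.904). Pi16, the marker that names these cells, was itself at 1446 and 693 CPM in the larger of their 2 clusters and at 415 and 306 CPM in the smaller. Smooth muscle-like cells had 543 and 308 CPM, a log2 ratio of -0.82 (-0.99 to -0.65). Unthinned, 72.8% and 66.4% of them had a UMI, at median depths of 9708 and 11098.5 UMIs. Pericyte-like cells had 677 and 626 CPM, with a log2 ratio of -0.11 (-0.36 to 0.14) that includes 0. Venous and arterial endothelial-like cells were lower in the mutant by log2 ratios of -0.58 (-0.81 to -0.35) and -0.49 (-0.75 to -0.24). Without the top droplets these were -0.76 and -0.48. In tendon or ligament fibroblast-like cells the order was the opposite, with 331 CPM in WT cells and 446 CPM in mutant cells, a log2 ratio of 0.43 (0.28 to 0.58).

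Igfbp5, which binds matrix and is the most conserved of the family, was counted at 2645 CPM (2610 to 2681) in WT cells against 3163 CPM (3121 to 3206) in mutant mesenchymal-like cells, a log2 ratio of 0.26 (0.23 to 0.29). The thinned share of cells with a UMI was 62.3% and 62.1%. Mural-like cells followed with 1779 and 1836 CPM, and muscle-like cells (685 and 391 CPM) and Schwann-like cells (362 and 630 CPM) came next in WT and in the reverse order in the mutant. The intervals of these 4 levels lay apart in each library. B-like cells had 6.43 and 13.7 CPM and macrophage-like cells 11.9 and 15.1 CPM. Nbl1 (r = 0.91), Klhl29 (r = 0.90) and Antxr1 (r = 0.89) were nearest to it.

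Outside the mesenchymal-like cells Igfbp5 was higher in the mutant in some types and lower in others. Pericyte-like cells had 1303 CPM (1209 to 1404) in WT cells against 2438 CPM (2275 to 2610) in mutant cells, a log2 ratio of 0.90 (0.76 to 1.05), and 0.85 without the top droplets, which held 27.5% and 31.7% of the UMIs. Their unthinned share with a UMI was 54.8% and 52.9%, at median depths of 5828.5 and 9250 UMIs. Smooth muscle-like cells were slightly lower in the mutant, 1932 and 1695 CPM, a log2 ratio of -0.19 (-0.26 to -0.11). Myelinating Schwann-like cells had 498 and 718 CPM, a log2 ratio of 0.53 (0.35 to 0.70). Unthinned, 36.4% and 52.1% of them had a UMI, at median depths of 3267.5 and 4099.5 UMIs. Satellite-like cells went the other way, 685 and 391 CPM, a log2 ratio of -0.81 (-1.14 to -0.49), and -1.09 without the top droplets. Chondrocyte-like cells had 9.32 CPM in 31 WT cells and 229 CPM in 106 mutant cells, whose median depths were 32169 and 3350.5 UMIs. The make-up of this class differed as well, with the cartilage collagen gene Col2a1 at 30015 and 3183 CPM, Acan at 3386 and 788 CPM and the haemoglobin gene Hba-a1 at 38.3 and 29066 CPM. The part of these gaps in its IGF values was not tested.

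The Igfbp5 level of erythroid-like cells rested on 1 cluster. It was 11.3 CPM in WT cells and 108 CPM in mutant cells. In 1 erythroid-like cluster of 1 WT and 136 mutant cells, which also had Erbb4, Acta2, Myl9 and Dok6 among its leading genes, Igfbp5 had 311 UMIs and 1122 CPM. The largest erythroid-like cluster had 10.2 and 14.7 CPM.

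Igfbp6, which prefers IGF2, was close to specific to mesenchymal-like cells, at 1088 CPM (1066 to 1111) in WT cells against 748 CPM (727 to 769) in mutant cells, a log2 ratio of -0.54 (-0.59 to -0.49). Chondrocyte-like cells came second with 136 and 122 CPM, apart from the first in both libraries. The thinned share of mesenchymal-like cells with a UMI was 65.5% (61.3 to 69.6) in WT cells and 53.5% (48.8 to 58.1) in mutant cells, or 85.1% and 65.9% unthinned, against 0 of 119 WT (0% to 3.05%) and 0 of 94 mutant B-like cells (0% to 3.85%). Cluster make-up differed behind these mesenchymal-like shares as given for Igf1, and its part was not tested. Pi16+ fibroblast-like cells had 1331 and 869 CPM, a log2 ratio of -0.62 (-0.67 to -0.56), and tendon or ligament fibroblast-like cells 573 and 499 CPM, a log2 ratio of -0.20 (-0.33 to -0.07). Its closest followers were Spon2 (r = 0.91), Kctd16 (r = 0.88) and Thbs4 (r = 0.88), the last itself a marker that named the tendon or ligament type. Low levels in other classes were often lower in the mutant as well, with 81.9 and 23.3 CPM in Schwann-like cells and 27.5 and 15.4 CPM in neutrophil-like cells. Without the top droplets Schwann-like cells were at 47.2 and 19.7 CPM. Mature neutrophil-like cells were then at 23.2 and 24.1 CPM, a log2 ratio of 0.06 (-0.51 to 0.65), and immature ones had 15 and 1 UMIs. Myeloid progenitor-like cells had more Igfbp6 in the mutant, with 4.08 and 53.9 CPM, the latter 79 UMIs in 30 of 96 cells. In the same class Dcn was at 6.13 and 79.2 CPM, Col1a1 at 11.6 and 74.4 CPM and Hba-a1 at 54.4 and 6171 CPM, at median depths of 21949 and 4828.5 UMIs, and their part was not tested. The 38.2 CPM of mutant venous endothelial-like cells rested on 1 droplet with 63 of the 65 UMIs.

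Igfbp7 was highest in mural-like cells, at 2912 CPM (2841 to 2984) in WT cells against 2191 CPM (2123 to 2260) in mutant cells, a log2 ratio of -0.41 (-0.47 to -0.35). Endothelial-like cells had 1802 and 1597 CPM, mesenchymal-like cells 1018 and 837 CPM and chondrocyte-like cells 383 and 579 CPM, and the intervals of these 4 neighbours lay apart in both libraries. After thinning, 94.7% of WT and 92.3% of mutant mural-like cells had a UMI (97.7% and 93.1% unthinned), against 1.68% and 1.06% of B-like cells. By type, pericyte-like cells had 3065 and 2573 CPM, venous endothelial-like cells 2748 and 2562 CPM and smooth muscle-like cells 2863 and 2101 CPM. The capillary and arterial endothelium was lower, with 1207 and 1141 CPM and with 1388 and 955 CPM. The 3 genes nearest to Igfbp7 were Tm4sf1 (r = 0.91), Amotl1 (r = 0.91) and Meox2 (r = 0.90). The gene lies over Polr2b and Gm34648 on the opposite strand.

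Among vessel cells Igfbp7 was lower in the mutant mainly in arterial and smooth muscle-like cells. Arterial endothelial-like cells had a log2 ratio of -0.54 (-0.64 to -0.44) and smooth muscle-like cells one of -0.45 (-0.51 to -0.38), while venous endothelial-like cells had -0.10 (-0.16 to -0.05) and capillary ones -0.08 (-0.16 to -0.00). Of the 13 classes chondrocyte-like cells were the only one above 100 CPM with more Igfbp7 in the mutant, for a log2 ratio of 0.60 (0.38 to 0.81), beside the gaps in depth, cartilage genes and haemoglobin given above. Without the top droplets it was 0.48, which is under 1.5-fold. In Schwann-like cells the level was 138 CPM in WT cells and 28.4 CPM in mutant cells, and 89.7 and 21.1 CPM without the top droplets.

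Over the 44 points the members resembled each other in place to very different degrees. Igfbp4 and Igfbp5 had r = 0.75, Igfbp4 and Igfbp7 r = 0.71 and Igfbp3 and Igfbp7 r = 0.70, while Igfbp3 had r = 0.02 with Igfbp2 and r = 0.08 with Igfbp6. Among the members Igf1 was nearest to Igfbp4, with r = 0.61, and Igf2 to Igfbp3, with r = 0.57. The neighbours Igfbp2 and Igfbp5 had different leading classes, mural-like for Igfbp2 and mesenchymal-like for Igfbp5.

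In Pi16+ fibroblast-like cells Igfbp4 and Igfbp6 were past 1.5-fold lower in the mutant, and Igf1 and Igfbp5 were higher by less than that. Igfbp7 was also lower there, with a log2 ratio of -0.28 (-0.34 to -0.21), and Igf1r higher, with 0.22 (0.11 to 0.32). The promoters of the first 4, from 250 bases before to 50 bases after the RefSeq gene start on GRCm38.p6, are shown so that a reader can see what they do and do not share. Capitals mark TATAAA or GGGCGG on either strand, the only motifs searched, which occurred in 13.6% and 35.7% of 32851 mouse promoters of this length. The Igfbp4 promoter (chr11:99040994-99041293, plus strand) has TATAAA 28 bases before the start, and the Igfbp6 promoter (chr15:102143936-102144235, plus strand) has it only on the reverse strand, read as TTTATA. The promoters of Igf1 (chr10:87860861-87861160, plus strand) and Igfbp5 (chr1:72874816-72875115, minus strand) hold neither motif. The Igf1 stretch belongs to a RefSeq start inside the gene as annotated in GENCODE M21, which begins at chr10:87858265. A match is a description of the letters and not of a bound site.
Igfbp4: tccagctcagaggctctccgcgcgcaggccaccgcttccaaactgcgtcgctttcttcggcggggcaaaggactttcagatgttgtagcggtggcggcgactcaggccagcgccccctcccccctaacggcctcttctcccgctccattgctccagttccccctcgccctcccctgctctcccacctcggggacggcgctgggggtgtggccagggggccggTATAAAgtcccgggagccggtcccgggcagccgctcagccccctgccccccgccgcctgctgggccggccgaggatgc
Igfbp6: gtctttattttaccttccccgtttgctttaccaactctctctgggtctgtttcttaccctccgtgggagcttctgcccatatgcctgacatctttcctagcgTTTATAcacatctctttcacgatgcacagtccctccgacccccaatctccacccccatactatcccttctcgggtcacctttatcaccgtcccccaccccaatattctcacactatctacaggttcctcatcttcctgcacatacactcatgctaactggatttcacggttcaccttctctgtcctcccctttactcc
Igf1: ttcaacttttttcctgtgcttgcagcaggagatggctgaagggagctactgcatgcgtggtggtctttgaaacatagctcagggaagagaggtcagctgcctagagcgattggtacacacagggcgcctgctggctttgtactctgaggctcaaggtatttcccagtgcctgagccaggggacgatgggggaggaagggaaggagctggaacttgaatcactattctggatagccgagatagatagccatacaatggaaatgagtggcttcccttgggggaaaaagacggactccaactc
Igfbp5: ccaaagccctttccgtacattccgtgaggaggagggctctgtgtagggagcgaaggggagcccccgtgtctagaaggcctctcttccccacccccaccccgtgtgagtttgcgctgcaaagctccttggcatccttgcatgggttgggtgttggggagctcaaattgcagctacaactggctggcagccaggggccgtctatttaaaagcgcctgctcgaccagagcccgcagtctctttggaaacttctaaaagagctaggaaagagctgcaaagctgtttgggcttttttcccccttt

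The question put to the libraries was how the joint tissue of mice with poor lymphatics differs under the same inflammation. Among mesenchymal-like cells, of the 8 members with at least 200 UMIs over both libraries 1 was at least 1.5-fold higher in the mutant (Igf2, with the droplet described above) and 1 at least 1.5-fold lower (Igfbp4), beside 4.51% higher and 4.04% lower among all genes counted as deeply. The median log2 ratio was 0.10 over the 8 members and 0.02 over the 8417 genes. In Pi16+ fibroblast-like cells 0 of 7 members were past 1.5-fold higher and 2 past 1.5-fold lower (Igfbp4 and Igfbp6), beside 4.94% and 4.62% of genes. In tendon or ligament fibroblast-like cells 1 of 6 was higher (Igfbp5, 1429 and 2241 CPM) and 0 lower, beside 6.06% and 5.73%. Mesenchymal-like cells also differed in the marker genes of other cells they carried. Erythroid markers, 6 of 6 detected, summed to 2800 CPM in WT cells and 23284 CPM in mutant cells, neutrophil markers to 152 and 1129.9 CPM, macrophage markers to 47.6 and 128 CPM and endothelial markers to 38.8 and 60.9 CPM. Their part in the differences of the IGF genes was not tested.

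The mesenchymal-like cells consisted of 4 clusters that shared some of these differences and not others. Of the 2 Pi16+ clusters the larger, cluster 7, had 244 WT and 140 mutant cells and the smaller, cluster 19, had 121 and 116. Cluster 13 was the tendon or ligament one, and cluster 21, fibroblast-like with 16 WT and 165 mutant cells, had erythroid markers at 198189 CPM in the mutant. Igfbp4 was at 2170 and 1102 CPM in cluster 7, 1230 and 808 CPM in cluster 19 and 1730 and 429 CPM in cluster 21, against 331 and 446 CPM in cluster 13. Igfbp6 was at 1462 and 1045 CPM in cluster 7 and 755 and 309 CPM in cluster 19, and went the other way in cluster 21 with 139.6 and 452 CPM. Igf1 was higher in the mutant in clusters 7, 13 and 19, with log2 ratios of 0.38, 0.50 and 0.78, and at 85.0 and 87.1 CPM in cluster 21. Igfbp5 was higher in all 4, with log2 ratios of 0.21, 0.65, 0.78 and 0.35 in clusters 7, 13, 19 and 21, and Igfbp7 lower in all 4, with log2 ratios of -0.20, -0.37, -0.53 and -1.44.

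Cluster 19, whose name rests on 4 markers (Pi16, Cd55, Sema3c and Dcn) with none among its 10 leading genes, had members past 1.5-fold in both directions. Igf1 stood at 360 CPM in WT cells and 618 CPM in mutant cells, Igfbp5 at 1259 and 2161 CPM, and both were 1.72-fold higher in the mutant. Igfbp4 and Igfbp6 were lower by log2 ratios of -0.61 (-0.73 to -0.48) and -1.29 (-1.47 to -1.10), and without the top droplets Igfbp4 was at -0.53, under 1.5-fold. After thinning, 49.5% (39.9 to 59.2) of its WT and 32.2% (22.8 to 42.9) of its mutant cells had an Igfbp6 UMI, or 62.0% and 37.9% unthinned. These 4 are the members past 1.5-fold among 6 with enough UMIs, 2 in each direction, but this cluster had many such genes, 13.5% of all higher and 15.5% lower. The set depends on single droplets, since Igfbp7 was past 1.5-fold lower without the top droplets, at 727 and 360 CPM, a log2 ratio of -1.02 (-1.20 to -0.84). In cluster 7 only Igfbp4 was past 1.5-fold among 7 members, beside 4.38% higher and 3.37% lower. Erythroid markers summed to 4683 and 6326 CPM in cluster 7 and to 329 and 3803 CPM in cluster 19. Neutrophil markers summed to 107 and 848 CPM in cluster 7 and to 161 and 430 CPM in cluster 19, and 5 gland genes to 0 and 59.1 CPM and to 37.5 and 516 CPM. Their part was not tested.

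**Figure D3:**
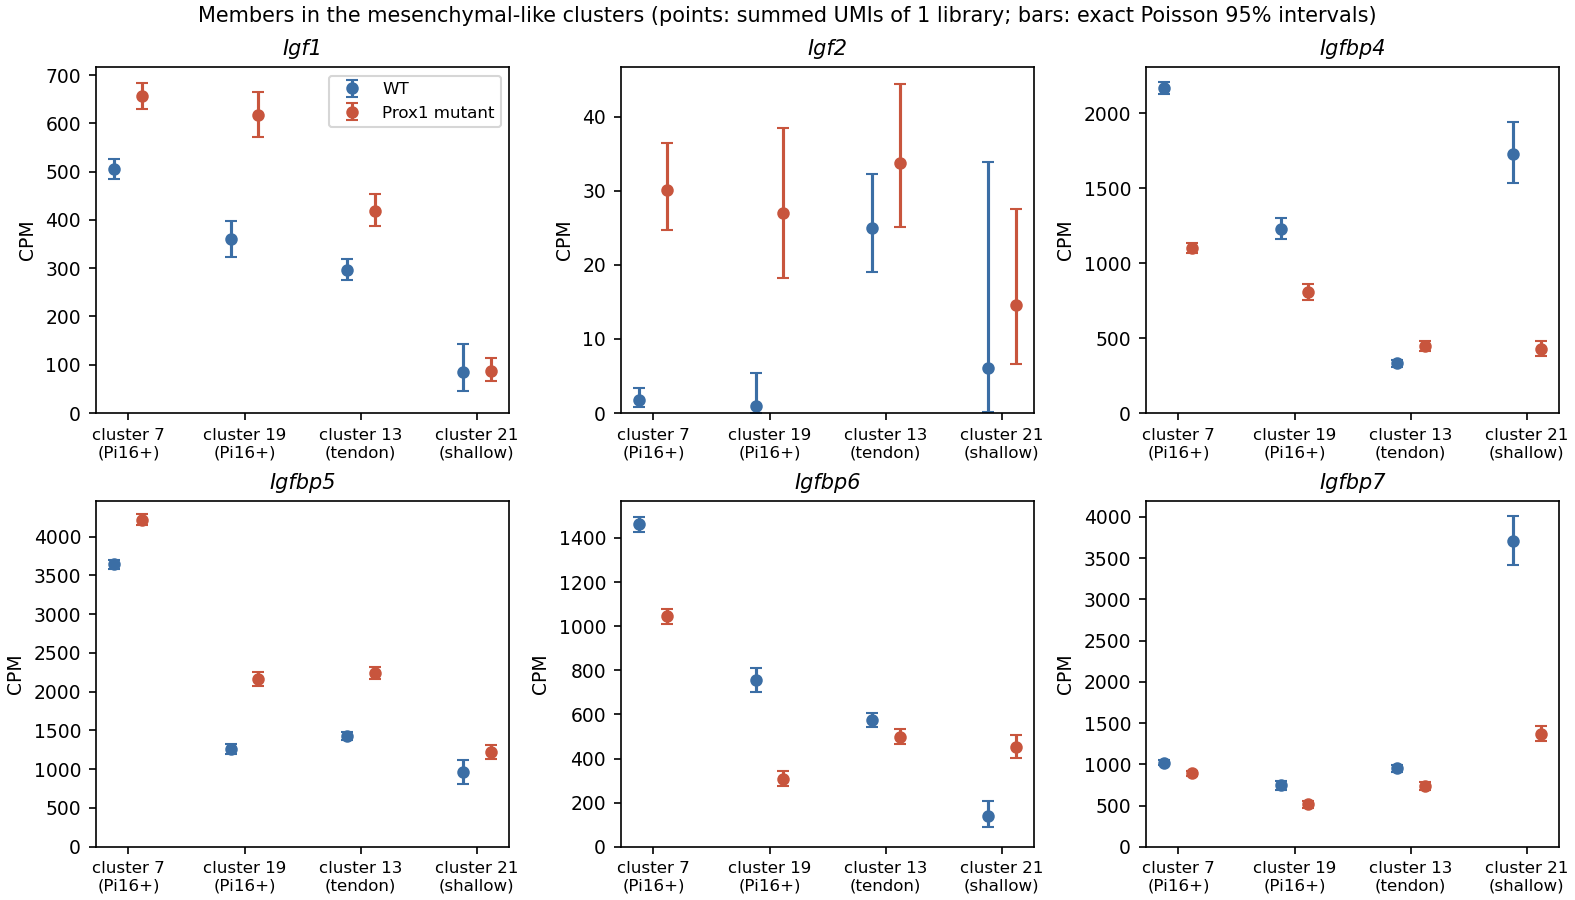
Level in CPM (linear axis) of 6 IGF genes in the 4 mesenchymal-like clusters 7, 19, 13 and 21 of the WT and the mutant library, with exact Poisson 95% intervals. Igfbp4 is at 2170 CPM in WT cells and 1102 CPM in mutant cells in cluster 7 and is higher in the mutant in cluster 13 (331 and 446 CPM), and the Igf2 point of mutant cluster 7 comes almost wholly from 1 droplet.

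With all droplets counted, 1 or 2 members were past 1.5-fold in each class or type of vessel cells. Capillary endothelial-like cells were the exception, with 0 of 3 (beside 5.52% higher and 6.53% lower). In mural-like cells it was Igfbp4 among 4 members (0 higher, 1 lower, beside 3.2% and 4.68% of genes), in smooth muscle-like cells again Igfbp4 among 4 (0 higher, 1 lower, beside 3.67% and 4.35%), and in pericyte-like cells Igfbp5 among 4 (1 higher, 0 lower, beside 6.52% and 11.7%). In endothelial-like cells it was Igf2 among 6 (1 higher, 0 lower, beside 3.72% and 4.69%). The Igf2 call came from the arterial type, where again Igf2 alone of 5 passed (1 higher, 0 lower, beside 3.43% and 7.09%). Without the top droplets Igfbp5 was past 1.5-fold lower in endothelial-like cells too, at 82.8 and 51.6 CPM, a log2 ratio of -0.68 (-0.90 to -0.47). In venous endothelial-like cells Igf1r was past 1.5-fold higher and Igfbp3 past 1.5-fold lower, 2 of 5 members, beside 4.54% and 6.36%. Without the top droplets Igfbp4 and Igfbp5 were past 1.5-fold lower there as well, with log2 ratios of -0.76 and -0.62. The shares over all genes keep every droplet. Markers of other cells differed here too. In mural-like cells erythroid markers summed to 7520 and 15500 CPM, neutrophil markers to 2128 and 3207 CPM, endothelial markers to 436 and 232 CPM and the 5 gland genes to 0 and 174 CPM. In endothelial-like cells erythroid markers summed to 1572 and 13304 CPM, neutrophil markers to 224 and 515 CPM and gland genes to 0.14 and 182 CPM, and the part of these was not tested.

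Outside stroma and vessels at most 5 of the 9 members had enough UMIs in a class. In macrophage-like cells 1 of 5 members was past 1.5-fold higher (Igfbp4, 10.8 and 20.9 CPM) and 1 past 1.5-fold lower (Igfbp7, 21.5 and 9.89 CPM), beside 13% and 3.56% of genes. Without the top droplets Igfbp5 was past 1.5-fold higher there too, at 7.80 and 12.9 CPM, and so was Igfbp7 in erythroid-like cells, at 21.2 and 60.2 CPM. For comparison, B-like cells had 37.3 and 58.1 CPM of Igfbp4 and 15.4 and 4.56 CPM of Igfbp7. In neutrophil-like cells 0 of 4 were higher and 1 lower (Igfbp7, 31.6 and 18.5 CPM), beside 6.88% and 5.51%, but that call rested on the top droplets, without which Igfbp7 was at 15.0 and 17.7 CPM, a log2 ratio of 0.24 (-0.26 to 0.75). Schwann-like cells had 1 of 3 higher (Igfbp5) and 1 lower (Igfbp7), beside 5.89% and 10.3%. This class pooled 324 WT and 146 mutant myelinating cells with 49 and 14 non-myelinating ones. In the myelinating cells 0 of 2 members passed, beside 3.74% higher and 5.74% lower. Without the top droplets Igfbp7 had 162 and 16 UMIs in the class, too few to be counted. The part of this mix was not tested. Muscle-like cells had 0 of 2 higher and 1 lower (Igfbp5), beside 9.76% and 14.9%, and Igf2 had too few UMIs there to be counted. Erythroid-like cells had 2 of 3 higher (Igf1r and Igfbp5) and 0 lower, beside 23.7% and 5.03%, and chondrocyte-like cells 1 of 3 higher (Igfbp7, with the limits given above) and 0 lower, beside 18.3% and 31.3%. Igf1r was past 1.5-fold higher in B-like cells (1 of 1, 104 and 158 CPM, beside 14.9% higher and 14.1% lower) and in myeloid progenitor-like cells (1 of 2, 111 and 202 CPM, beside 13% and 7.71%). It was the only member counted in T-like and monocyte-like cells and was within 1.5-fold in both, beside 11.8% and 10.7% in the former and 16.6% and 12.5% in the latter.

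**Figure D4:**
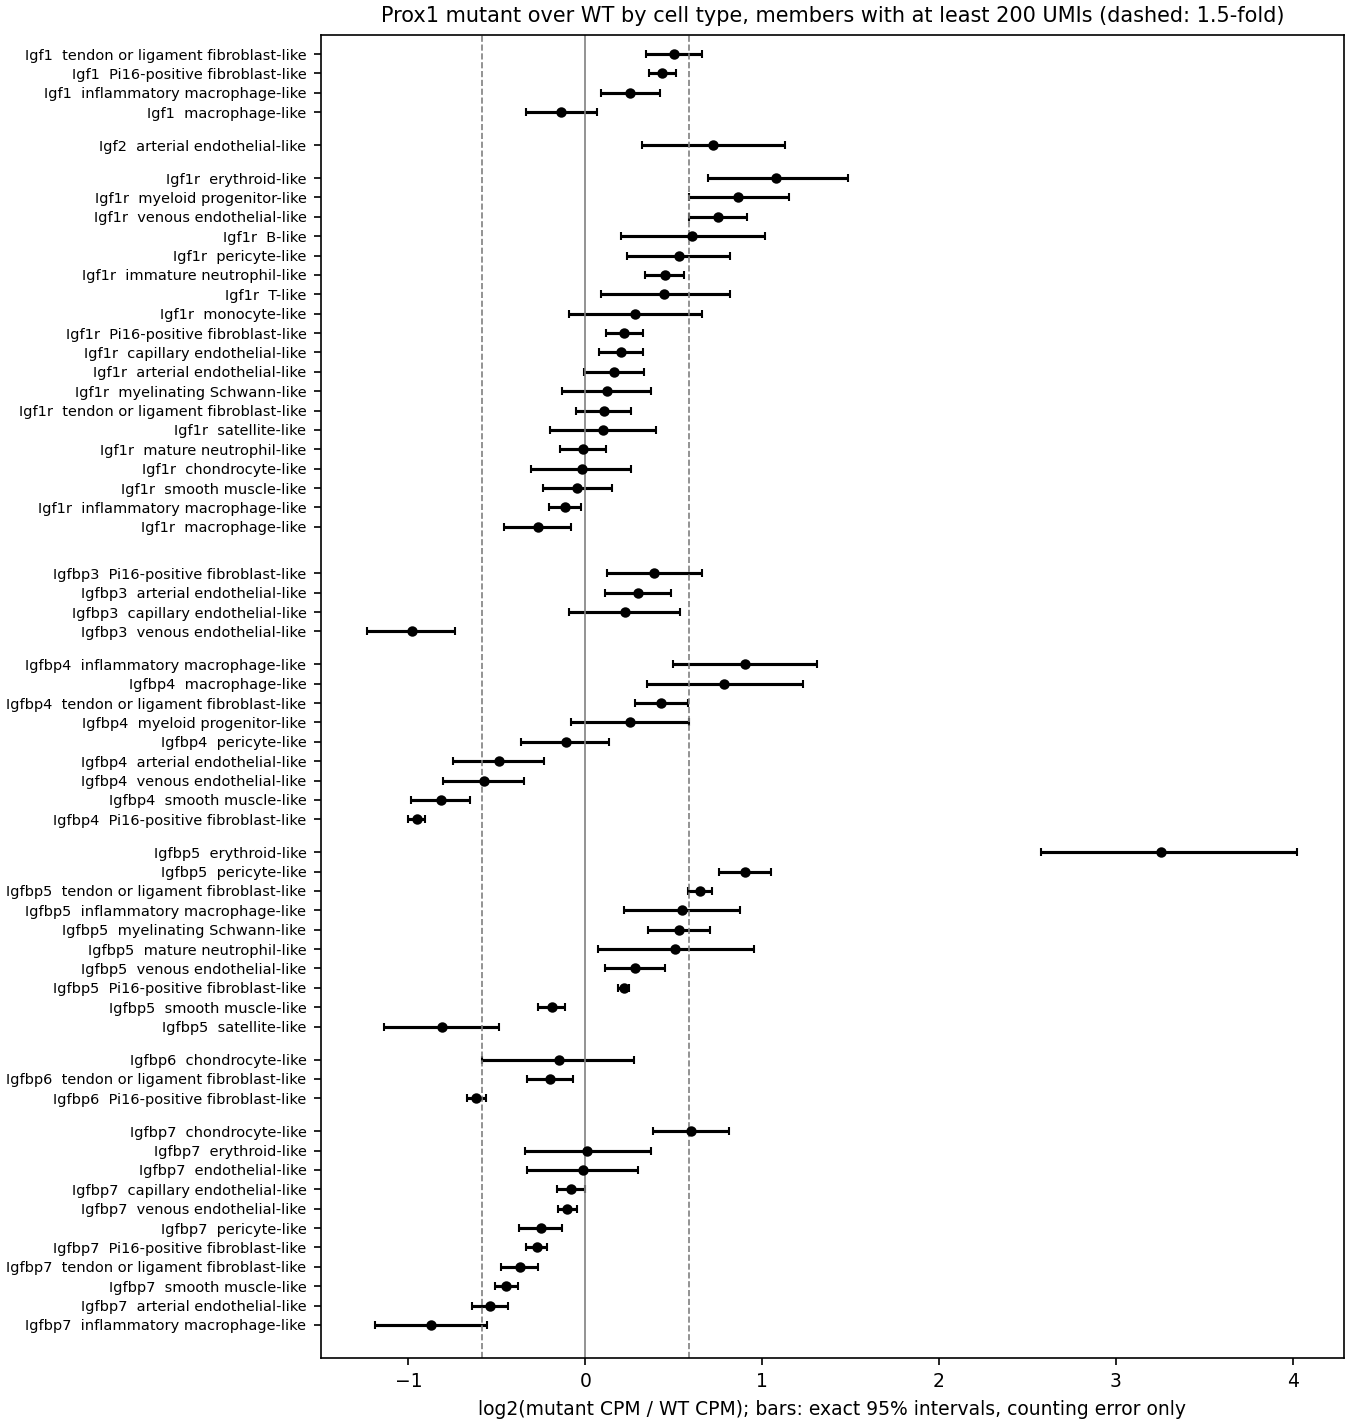
Log2 ratio of mutant to WT level for each member in cell types with at least 30 cells in each library and enough UMIs, with 95% counting intervals and dashed lines at 1.5-fold. Igfbp4 lies at -0.95 in Pi16+ fibroblast-like and -0.82 in smooth muscle-like cells and at 0.43 in tendon or ligament fibroblast-like cells, and Igfbp5 at 0.90 in pericyte-like and -0.81 in satellite-like cells. The row named endothelial-like holds the endothelial cluster without a subtype.

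The other 36 genes of the IGF list, which holds further receptors, proteases, adaptors and growth hormone signalling genes, were mostly within 1.5-fold of WT in stromal and vessel cells. The shares of all genes past 1.5-fold in each class or type, given above, are the background for these counts. In mesenchymal-like cells 25 of them had enough UMIs (4.51% higher and 4.04% lower over all genes), with 1 past 1.5-fold higher (Pappa2, a protease that cuts IGFBP5, at 21.5 and 47.6 CPM), 1 lower (Grb14, an adaptor that inhibits insulin receptor signalling) and a median log2 ratio of -0.13. Pappa2 also stood out in mural-like cells with 39.5 and 166 CPM, the only one of 17 past 1.5-fold there (3.2% and 4.68% over all genes). It had too few UMIs to be counted in smooth muscle-like cells. Pericyte-like cells were an exception, with 1 of 3 higher (Pappa2) and 1 lower (Adamts1), beside 6.52% and 11.7% of all genes. Values without the top droplets are given for the members only. In tendon or ligament fibroblast-like cells Pappa2 was at 28.8 and 134 CPM. In those fibroblast-like cells 1 of 20 was past 1.5-fold higher and 5 lower, beside 6.06% and 5.73% of all genes, the latter the protease gene Adamts1, the adaptor Irs2, the PI3K subunit Pik3r1 and the transcription factors Foxo1 and Foxo3. In Pi16+ fibroblast-like cells 0 of 24 were higher and 2 lower, Grb14 and Grb10 (4.94% and 4.62% over all genes), and in endothelial-like cells 0 of 18 passed in either direction (3.72% and 4.69%). Chondrocyte-like cells were another exception, with 8 of 11 past 1.5-fold, 2 higher (Gab1 and Pik3r1) and 6 lower (Stc2, Grb10, Grb14, Ghr, Socs2 and Foxo3), beside 18.3% and 31.3% and the gaps in this class given above. Igf2r, the scavenger receptor for IGF2, was at 176 and 229 CPM in mesenchymal-like cells, a log2 ratio of 0.38 (0.27 to 0.48), and Ghr, the growth hormone receptor, at 401 and 327 CPM. Igfbp1 had 0 UMIs in either library.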

How the data were processed

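The authors captured cells in droplets with a 10x Genomics kit for transcript 3' ends, aligned the reads to GRCm38 (mm10) with Cell Ranger 7.0.1. The deposited values are raw UMI counts per gene and called barcode of 2 libraries, without normalization. Whether intronic reads were counted is not given in the sources used here. No column belonged to another sample (0 such columns).

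Following the study's methods, barcodes needed 500 or more genes and a mitochondrial share below 10%. They were normalized by SCTransform, integrated by anchors on 3000 features, reduced to 200 principal components and clustered at resolution 1.5, using sctransform 0.4.2 and Seurat 5.3.0 (R 4.3.3). Summing was done in Python 3.11.15, using scipy 1.17.1 and scanpy 1.11.5. The kept cells held a median of 6997 UMIs in WT and 4848 UMIs in the mutant, and this depth sets the precision of each level.

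A marker was raised in a cluster when its CPM plus 5 was at least 2 times that of all other cells and a UMI was present in 10% or more of its cells. Names went to the best supported type with 3 or more raised markers. No name was given where another class's markers led among the 10 top genes. The same held where none of the 10 was a marker of the cluster's own class and the cluster was shallow or had just 3 markers raised. The rule on 3 markers was set with the clusters in view, as was the rule that Pi16-positive cells must have Pi16 raised. Shallow clusters with an own marker among the 10 kept their name, such as an endothelial-like one with a median of 1155 UMIs. Classes and types were compared only where each library had at least 30 cells. The mesenchymal-like clusters were described whatever their size, cluster 21 with 16 WT cells among them.

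Log2 ratios divide the mutant CPM by the WT CPM with an exact 95% interval conditional on the summed UMIs. Shares of cells were computed from all UMIs and after thinning each cell to 2000 UMIs, with Clopper-Pearson intervals. UMIs of 1 droplet are not independent cells, so values without the droplet with most UMIs were also computed. Genes with at least 200 UMIs over both libraries entered the counts of genes past 1.5-fold. Likeness is Pearson's r of log2(CPM + 10) over 44 points. The ratio step was tested on simulated counts of 8417 genes for mesenchymal-like cells, where 99.5% of 200 genes changed 2-fold passed 1.5-fold, 0.0243% of the unchanged genes did and 95.35% of intervals held the true value. These counts were drawn from the Poisson model that the intervals assume, without spread between droplets or libraries. The simulation therefore checks the calculation only, and cannot show how the intervals hold in the real data. Scrublet's automatic threshold called 0 doublets, so the 239 WT and 462 mutant cells with the highest scores were removed in 1 alternative only.

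Besides the 9 members, the genes named are the 3 most like each member, the 36 other genes of the IGF list that passed 1.5-fold or play a known part, and the markers of the classes. The members and lists were chosen with earlier results of these data known. Other alternatives changed the cell filter, integration, principal components, clustering features, cell assignment, weighting, scaling, thinning depth (1000 UMIs), UMI minimum (50) and fold (2). Promoter sequences came from RefSeq on GRCm38.p6, which matched 9 of 9 members, and gene positions from GENCODE M21.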

Additional observations from a re-analysis of the deposited data

Results flagged for a closer look

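Within 1 gene, some cell types stood above WT by at least 1.5-fold in the mutant library and others below it by at least 1.5-fold. With 1 library per genotype the difference between cell types was not tested. Igfbp4 was lower in mutant Pi16+ fibroblast-like cells, by a log2 ratio of -0.95 (1997 and 1031 CPM), and in smooth muscle-like cells, by -0.82 (543 and 308 CPM). It was higher in mutant inflammatory macrophage-like cells, with a log2 ratio of 0.90 (8.55 and 16.0 CPM), and in other macrophage-like cells, with 0.78 (16.5 and 28.4 CPM). The inflammatory ones differed in median depth, 25531 and 7442 UMIs, and 15.9% of genes were past 1.5-fold higher and 3.6% lower there. A cluster with a median of 2832 UMIs supplied 43 of their 353 WT and 212 of their 505 mutant cells, and its part was not tested. The macrophage levels were below those of B-like cells, 37.3 and 58.1 CPM.

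Igfbp5 was higher in mutant pericyte-like cells, with a log2 ratio of 0.90, in tendon or ligament fibroblast-like cells, with 0.65, and in erythroid-like cells, with 3.25, and lower in satellite-like cells, with -0.81. The erythroid value rested on the cluster of 136 mutant cells that held 311 of the 365 UMIs, and the satellite value on 446 WT and 98 mutant UMIs.

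Igfbp7 was higher in mutant chondrocyte-like cells, with a log2 ratio of 0.60 (383 and 579 CPM), and lower in mutant inflammatory macrophage-like cells, with -0.87 (26.5 and 14.5 CPM). Without the droplet with most UMIs in each library both were under 1.5-fold, at 0.48 (0.25 to 0.71) in chondrocyte-like cells and at -0.34 (-0.70 to 0.01) from 16.6 and 13.1 CPM in inflammatory macrophage-like cells. The chondrocyte-like cells were 31 and 106 in number with median depths of 32169 and 3350.5 UMIs, Col2a1 at 30015 and 3183 CPM and Hba-a1 at 38.3 and 29066 CPM, and the part of these gaps was not tested.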

How the results depend on the processing

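The log2 ratio of each member in its leading class was recomputed in 94 ways over the 9 members. It stayed inside its own 95% interval in 55, left it in 39 and reversed the direction of a ratio past 1.5-fold in 0. Of 170 levels recomputed in such alternatives, 84 stayed inside their own 95% interval and 86 left it. Igfbp4 was past 1.5-fold in 11 of 11 alternatives and Igf2 in 10 of 10, Igfbp6 in 4 of 11, Igfbp2 in 2 of 10, Igf1 in 1 of 11 and Igfbp7 in 1 of 10, and the sign of Igfbp2 differed in 3 of 10. A stricter filter (1000 genes, 5% mitochondrial share) gave 0.52 for Igf1, -0.68 for Igfbp2, -0.78 for Igfbp4, 0.29 for Igfbp5, -0.45 for Igfbp6 and -0.52 for Igfbp7. A looser one (200 genes, 20%) gave 0.29 for Igf1, 0.29 for Igf1r, -1.013 for Igfbp4, 0.13 for Igfbp5, -0.59 for Igfbp6 and -0.50 for Igfbp7. Without doublets Igfbp6 was -0.44 and Igfbp7 -0.70. Merged without integration, Igf1 was 0.49, Igfbp4 -0.96, Igfbp5 0.16, Igfbp6 -0.47 and Igfbp7 -0.57. With 30 principal components Igf1 was 0.47 and Igfbp5 0.21, TMM scaling gave 0.21 for Igfbp5, and IGF genes allowed among the features gave -0.58 for Igfbp7. The mean of CPM per cell, which weights shallow cells as much as deep ones, gave 0.12 for Igf1, -0.054 for Igf1r, -0.67 for Igfbp2, 0.16 for Igfbp3, 0.022 for Igfbp5, -0.91 for Igfbp6 and -0.50 for Igfbp7. Cells assigned by marker UMIs without clusters gave 0.65 for Igf1, -0.23 for Igfbp3, -0.68 for Igfbp4, 0.30 for Igfbp5 and -0.77 for Igfbp6. Without the mesenchymal clusters under 30 cells in a library, an alternative chosen after seeing the data, Igf1 was 0.48, Igfbp4 -0.76 and Igfbp5 0.33, and without the top droplets Igfbp3 was -0.21. The causes of these shifts were not tested.

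No paired analysis was possible because each genotype has 1 library, and no replicate was left out for the same reason. Levels under about 10 CPM rest on few UMIs, as for Igfbp2 outside mural-like cells and Igf2 in most classes, and lower levels in classes with few cells were not detectable at this depth.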

Other observations

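Cell types with fewer than 30 cells in a library entered no comparison of classes or types. The fibroblast-like type, with 16 WT cells, was described above only as cluster 21. Values of 2 other such types follow. Osteoblast-like cells, which express Bglap and Ibsp and number 31 in WT and 21 in the mutant, had Igf1 at 136 CPM (108 to 170) and 388 CPM (337 to 444), Igfbp4 at 444 and 1030.0 CPM and Igfbp5 at 739 and 1459 CPM. Adipocyte-like cells, 7 of them WT and 180 mutant, differed in median depth (20878 and 1916 UMIs). They had Igf1 at 851 and 316 CPM and Igfbp7 at 2584 and 1008 CPM.

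An unnamed cluster of 86 WT and 29 mutant cells, led by Dok6, Rspo4 and Unc5d, had Igf2 at 63.4 CPM and 202 CPM, from 76 and 87 UMIs, Igfbp3 at 261 and 570 CPM, Igfbp5 at 447 and 686 CPM and Igf1r at 571 and 856 CPM. Among clusters with more than 1 cell in a library, these Igf2 levels were the highest in each library. Of the osteoblast markers, Runx2, Sp7 and Alpl were raised in this cluster and Bglap, Bglap2, Ibsp and Dmp1 were not. The mean log2 fold of the whole marker list over other cells was -0.44.

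Of 2 unnamed clusters made up almost wholly of mutant cells, the one led by Igkc, haemoglobin genes and Jchain (9 WT and 624 mutant cells) had Igfbp5 at 221 CPM in the mutant and the one led by the secretory genes Lipf, Wfdc18 and Lyz1 (12 and 328 cells) had it at 523 CPM, at median depths of 2499.5 and 1251 UMIs. A shallow unnamed cluster of 23 WT and 83 mutant cells, led by Abca13, Cpa6 and Padi4, had Igf1r at 2860 CPM (2287 to 3532) and 2959 CPM (2639 to 3307), from 86 and 311 UMIs.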
